A study of Mus musculus with 16 samples.

Results

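Transcripts of 152 ion channel genes were followed in mouse hepatic stellate cells, the retinoid-storing pericytes of the liver that turn into contractile, matrix-producing cells after injury. The members were taken by their platform symbol: potassium channels and their subunits (Kcn), sodium channels (Scn), voltage-gated calcium channel subunits (Cacna, Cacnb, Cacng), TRP channels (Trpc, Trpm, Trpv), ClC chloride channels and exchangers (Clcn), chloride intracellular channels (Clic) and anoctamins (Ano). Of 18193 genes with a single-symbol probe set, 152 matched. Where a gene had several such probe sets (91 of the 152), the one with the highest average across the 16 arrays was used, regardless of group.

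RNA of each sample was measured on 1 oligonucleotide array, and values are the authors' log2 expression after GCRMA. All stellate cells came from male Balb/c mice aged 8 to 10 weeks, were isolated by density centrifugation and were depleted of cells carrying the macrophage protein F4/80. Cocultured cells (2 arrays, numbered 2 and 3 in the labels) were grown for 5 days in medium with 10% fetal bovine serum beside hepatic macrophages (Kupffer cells), separated from them by transwell inserts. Cultured cells (3 arrays) had the same 5 days and the same serum on plastic without macrophages. Cells after ligation (3 arrays, BDL) came from mice whose common bile duct had been tied for 15 days, and cells after CCl4 (3 arrays) from mice given 4 intraperitoneal injections of carbon tetrachloride at 0.5 µl per g body weight. Both in vivo groups, like the quiescent cells of normal mice (5 arrays), were plated for 24 h before lysis, so every group had spent time in culture. The design text gives coculture 3 samples, and the one not numbered 2 or 3 was not analysed here. Nothing in the labels ties an array to an animal, and the p-values below therefore reflect array-to-array spread that may be technical.

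Ion channels set the membrane potential and let calcium, chloride and other ions cross the plasma membrane and the membranes of endosomes and lysosomes. In pericytes and smooth muscle, calcium entry favours contraction, and potassium channels that hyperpolarise the membrane oppose it. The ATP-sensitive potassium channel of pericytes is built from the pore protein encoded by Kcnj8 and the sulfonylurea receptor encoded by Abcc9.

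The preparations carried stellate cell transcripts, and transcripts listed as markers of other cell types differed between groups. Which cells carried them was not tested. Of 10 stellate cell markers, 8 or 9 reached log2 5 in every group, and Ngfr stayed below it in all 5. Their sums, the log2 of the summed linear values, were 12.02 to 12.75 in coculture, 13.13 to 14.21 in culture, 12.41 to 12.92 after ligation, 11.98 to 12.85 after CCl4 and 13.35 to 13.97 in quiescent cells. The coculture arrays stood apart in the stellate marker Colec11, with a mean of 6.06 ± 4.16 (SD). Hepatocyte markers (7 of a list of 8 on the array) summed to log2 7.65 to 9.17 after ligation and 8.59 to 11.35 after CCl4, against 4.36 to 5.32 in quiescent cells. Mesothelial markers (6 of 6) summed to 7.83 to 8.70 after ligation and 8.54 to 10.85 after CCl4, against 4.28 to 4.63 in quiescent cells, mainly through Krt8 and Krt18. After ligation and CCl4, Msln (2.74 and 2.85), Upk3b (1.33 and 2.27) and Gpm6a (2.01 and 2.36) stayed low. Wt1 averaged 4.39 and 4.67, against 2.14 in quiescent cells. The sum rests on 2 keratins and is not shown to come from mesothelial cells. Smooth muscle markers (5 of 5) summed to 7.30 to 7.74 in coculture, 6.44 to 7.67 in culture, 9.36 to 10.09 after ligation, 9.10 to 10.02 after CCl4 and 6.28 to 7.80 in quiescent cells. Macrophage markers (12 of 12) summed to 8.02 to 8.04 in coculture, 5.32 to 6.05 in culture, 6.69 to 8.17 after ligation, 7.23 to 8.08 after CCl4 and 6.68 to 8.02 in quiescent cells, so culture lay below every other group. Of them Cd68 alone reached log2 5, at 7.82 in coculture, 3.74 in culture, 6.34 after ligation, 7.06 after CCl4 and 7.02 in quiescent cells, while Adgre1, which encodes F4/80, averaged 1.55 in coculture and 1.54 in culture. The cholangiocyte marker Krt19 averaged 5.60 in coculture and 2.33 in culture, and the others of its list were low in both. In coculture and culture they averaged 1.47 and 1.49 (Krt7), 2.54 and 2.23 (Epcam), 2.68 and 2.61 (Sox9) and 1.69 and 1.88 (Cldn7). No marker of endothelial cells, neurons and Schwann cells or lymphocytes had a group mean of 5. The part of these shifts in the results below was not tested. In bulk RNA, fewer cells of a type and less RNA per cell cannot be told apart.

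Of the 152 genes, 18 (11.8%) had a group mean of log2 5 or more in at least 1 group, against 42.3% of all genes on the array. GCRMA places unexpressed probe sets near log2 2 (array medians 2.00 to 2.06), and a mean of 5 is a level, not a detection call. The genes at 5 numbered 17 in coculture (11.2%, all genes 38.3%), 16 in culture (10.5%, all genes 37.8%), 15 after ligation (9.87%, all genes 38.0%), 15 after CCl4 (9.87%, all genes 37.9%) and 14 in quiescent cells (9.21%, all genes 38.0%). In every group 13 reached it, namely Ano6, Ano10, Cacna2d1, Clcn3, Clcn4, Clcn7, Clic1, Clic4, Kcne4, Kcnj8, Trpc1, Trpm7 and Trpv2. For Clcn3, Clcn7 and Trpc1 no further probe set had a mean of 5 in every group. The other 5 of the 18 genes depended on the group. Clcn5 reached 5 everywhere but in culture (4.72), and Cacnb2 everywhere but in quiescent cells (4.73). Clic5 reached it in coculture and culture, Kcnk6 in culture (5.31) and Kcnmb1 in coculture (5.70).

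By class, the share at log2 5 was uneven. Clic genes gave 3 of 5, ClC genes 4 of 7, anoctamins 2 of 7 and TRP channels 3 of 18. Voltage-gated calcium channel subunits gave 2 of 24, and among 80 potassium channel genes 4 reached it: 1 of 15 inward rectifiers, 1 of 12 tandem-pore channels, 1 of 11 calcium- or sodium-activated and 1 of 42 voltage-gated or modifier genes. None of the 11 sodium channel genes did. Just outside the level were Clcn6 at 4.94 in quiescent cells, Trpm4 at 4.90 in culture, Kcnq5 at 4.89 after CCl4 and Kcnk5 at 4.85 in quiescent cells. Just inside, by their highest group mean, were Kcnk6 at 5.31 in culture, Kcnmb1 at 5.70 in coculture and Clcn5 at 6.08 after ligation.

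**Figure D1:**
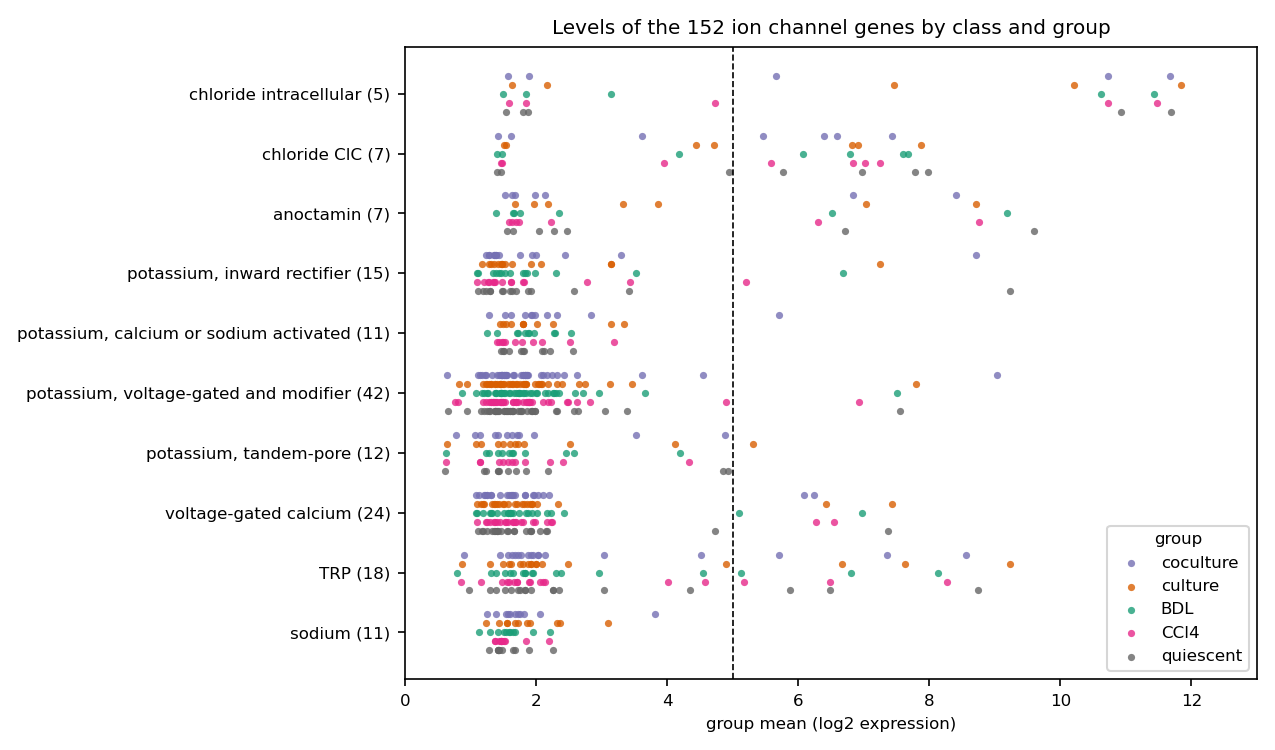
Group means (log2) of the 152 ion channel genes by class for the 5 groups, with a dashed line at log2 5. Most genes lie between log2 1 and 3, and 18 cross the line in at least 1 group.

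The low members formed a block near background. Of the 132 genes without log2 5 on at least 2 arrays, 119 stayed under log2 3 on every array, 9 had an array at 3 or more but none at 5, and 4 (Ano1, Clcn6, Trpc6 and Trpm4) had exactly 1 array at 5. These 132 were not tested. In a limma fit with no filter 12 of them were called in at least 1 comparison or the F test, beside 20.4% of all genes that the filter had left out. All 9 pore-forming Cacna1 genes on the list had group means between 1.08 and 2.33, and all 8 Cacng genes between 1.09 and 2.43. The 7 Kcna genes lay between 1.31 and 2.43 and the 4 Kcnn genes between 1.28 and 2.52. Levels this low say only that these probe sets gave no signal clear of background.

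The 20 genes with log2 5 on at least 2 arrays were tested within a limma fit of all 7823 genes that passed the same filter, with Benjamini-Hochberg adjustment over all of them and a threshold of 0.05. The moderated F test over the 5 groups called 17 of the 20, where 63.0% of all genes tested were called, and the other 3 were Ano10, Clcn3 and Kcnk6. A gene that passed the filter through 1 high group had to differ somewhere, as with Kcnmb1, whose arrays at 5 were both coculture arrays, so these counts describe the genes and support nothing by themselves.

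Coculture against quiescent cells called 10 of the 20 (38.7% of all genes): Cacnb2, Clic5, Kcne4, Kcnmb1, Kcnq5 and Trpv2 were higher (17.8% of all genes were called higher) and Ano6, Cacna2d1, Clcn4 and Kcnk5 lower (20.9%). Culture against quiescent cells called 11 (42.1% of all genes), with Cacnb2, Clic5, Kcnmb1, Trpc1, Trpm7 and Trpv2 higher (18.5%) and Ano6, Clcn4, Clcn5, Clic1 and Kcnj8 lower (23.5%). Ligation against quiescent cells called 3 (16.9% of all genes), all lower (8.83%): Kcnj8, Kcnk5 and Trpm7. No gene was called higher by limma after ligation (8.03% of all genes), and at an unadjusted p under 0.05 there was 1, Clic5. CCl4 against quiescent cells called 10 (22.0% of all genes), with Cacnb2, Clic5 and Kcnq5 higher (9.51%) and Ano6, Cacna2d1, Clcn4, Clcn7, Kcnj8, Kcnk5 and Trpm7 lower (12.5%). The coculture count was 4 without coculture array 2, the CCl4 count 6 and the ligation count 5 without CCl4 array 1. Averaging each gene's probe sets gave counts of 6 in coculture, 7 in culture, 1 after ligation and 5 after CCl4. These 4 comparisons share the same 5 quiescent arrays. The median log2 difference of the 20 genes was -0.18 in coculture, 0.10 in culture, -0.23 after ligation and -0.44 after CCl4, beside -0.04, -0.05, -0.05 and -0.05 over all genes tested.

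Between activated states, coculture against culture called 5 genes (15.4% of all genes): Kcne4, Kcnmb1 and Kcnq5 were higher in coculture (8.37%) and Cacna2d1 and Trpm7 lower (7.03%), with a median of -0.31 beside 0.01 over all genes. This count fell to 1 without culture array 3 or without coculture array 2, to 2 without coculture array 3, and to 3 without culture array 2 or CCl4 array 3. Ligation against CCl4 called 0 of the 20 by limma (0.166% of all genes), and 5 had an unadjusted p under 0.05 (Cacnb2, Clcn4, Clic5, Kcnj8 and Kcnq5). With array weights the same comparison called 3, and without a trend in the prior variance 1. Arrays of the injuries did not overlap for Cacnb2, Clcn4, Kcne4, Kcnj8 and Kcnq5, 5 of 20, as for 25.3% of all genes. Culture against the mean of the injuries called 14 (50.9% of all genes): 11 were higher in culture (25.0%) and 3, Clcn5, Clic1 and Kcnq5, were lower (25.9%). Its median was 0.61, beside -0.02 over all genes. Among the 20 genes, 9 had their highest group mean in culture, 2 in coculture, 1 after ligation, 2 after CCl4 and 6 in quiescent cells, where all genes tested gave 21.2% in coculture, 25.4% in culture, 16.4% after ligation, 15.0% after CCl4 and 22.0% in quiescent cells.

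**Figure D2:**
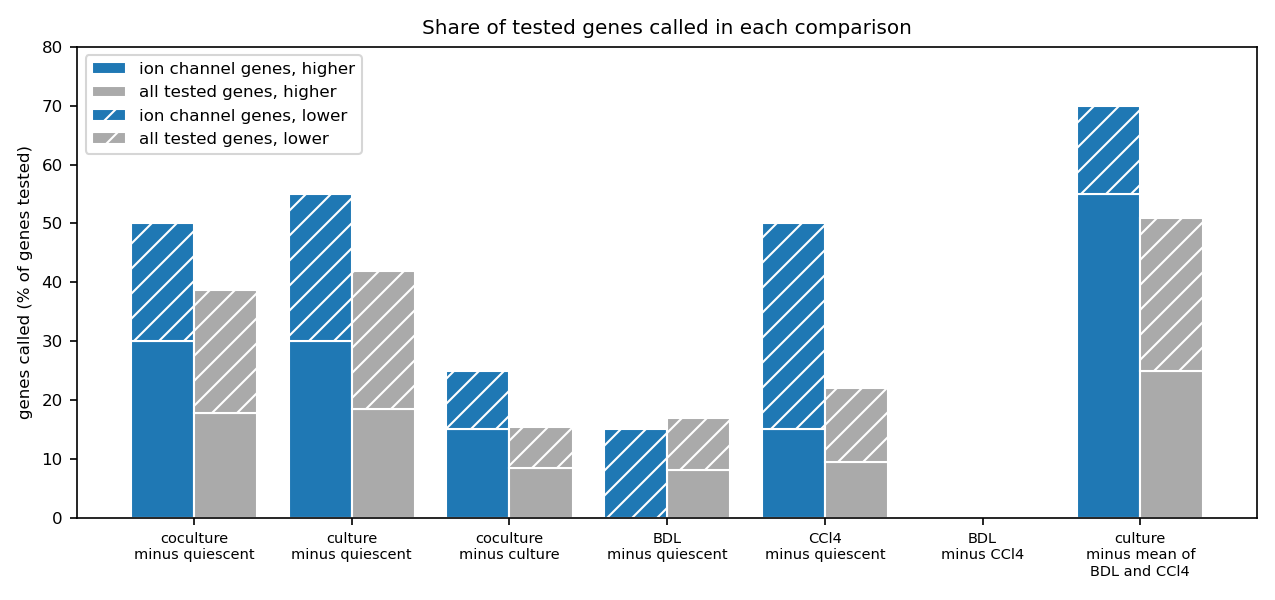
Percent of genes called higher and lower in each comparison, for the 20 tested ion channel genes and for all 7823 genes tested. The widest gap is among genes higher in culture than in the mean of the injuries, at 55.0% of the ion channel genes and 25.0% of all genes.

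**Figure D3:**
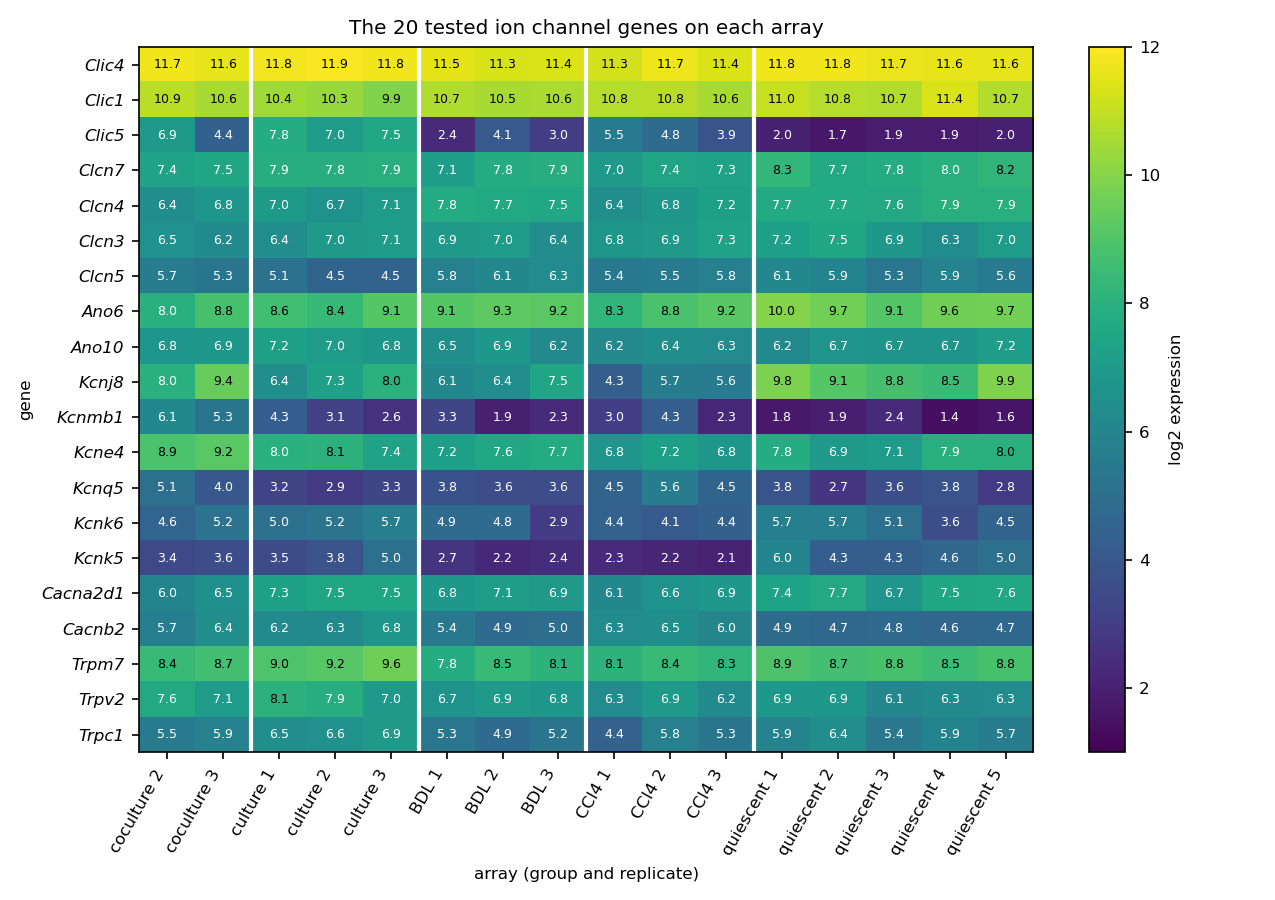
Log2 expression of the 20 tested ion channel genes on each of the 16 arrays, by group. Clic4 and Clic1 are at log2 10 or more in every group mean, whereas Clic5 and Kcnmb1 are near background in quiescent cells.

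Clic5 showed the widest range among the tested genes. It encodes a chloride intracellular channel protein, a member of a glutathione-transferase-like family that exists in soluble and membrane forms, known for its link to ezrin and actin in podocytes and hair cells. The 250 bases before 1 RefSeq transcript start (GRCm38.p6, chr17:44188322-44188571, plus strand) are shown because this gene lay at background in quiescent cells and well clear of it in culture. The window lies inside the gene's span of chr17:44134762-44280169, downstream of its first base, and which start these cells used was not tested. Capitals mark CCGCCC, the GC box GGGCGG read on the opposite strand, found at 2 places.
Clic5: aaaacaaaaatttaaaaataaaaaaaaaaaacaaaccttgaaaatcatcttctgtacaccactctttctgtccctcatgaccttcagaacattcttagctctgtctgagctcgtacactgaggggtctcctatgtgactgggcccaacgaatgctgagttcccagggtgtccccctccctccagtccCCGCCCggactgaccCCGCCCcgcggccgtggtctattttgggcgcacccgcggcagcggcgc
Clic5 read 6.90 and 4.41 in coculture, 7.79, 7.05 and 7.54 in culture, 2.37, 4.06 and 2.99 after ligation, 5.50, 4.84 and 3.87 after CCl4, and 1.99, 1.69, 1.89, 1.87 and 1.97 in quiescent cells. All 3 culture arrays exceeded every array of the in vivo and quiescent groups, the coculture arrays lay far apart, and no quiescent array reached 2. Relative to quiescent cells Clic5 rose by 3.77 ± 0.57 (adjusted p = 0.000154) in coculture, 5.58 ± 0.50 (adjusted p = 1.17e-06) in culture and 2.85 ± 0.50 (adjusted p = 0.000942) after CCl4, in log2 units ± SE from limma. Since quiescent cells were at background, these differences depend on GCRMA's background estimate. The gene passed the filter through 5 arrays at log2 5, all of them in culture, coculture or CCl4. Its higher values in those groups are therefore partly fixed by the filter. After ligation the difference was 1.26 ± 0.50 (adjusted p = 0.0998), which did not pass, although it passed without coculture array 2 (adjusted p = 0.039) or coculture array 3 (adjusted p = 0.0373). Coculture minus culture was -1.81 ± 0.62 (adjusted p = 0.0623) and was not called, but was called without coculture array 2 (adjusted p = 0.00883) and with the mean of its probe sets (adjusted p = 0.0189). With that mean the CCl4 difference was 1.85. Culture stood 3.52 ± 0.48 (adjusted p = 3.31e-05) above the mean of the injuries. Its 3 other probe sets had differences of 4.76, 4.74 and 2.26 between culture and quiescent cells, all in the same direction.

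Clic1 and Clic4 stayed high throughout. Clic4, a family member known for shuttling to the nucleus and for its part in tube formation in endothelium, read 11.74 and 11.60 in coculture, 11.79, 11.94 and 11.78 in culture, 11.53, 11.34 and 11.40 after ligation, 11.26, 11.72 and 11.44 after CCl4, and 11.77, 11.77, 11.70, 11.64 and 11.59 in quiescent cells. The spread over all 16 arrays was under 1 log2 unit, and of the 7 comparisons limma called culture against the mean of the injuries alone, at 0.39 ± 0.09 (adjusted p = 0.00302). Averaging its 3 probe sets ended that call (adjusted p = 0.169). Clic1, described in macrophages and glia, read 10.88 and 10.56 in coculture, 10.41, 10.31 and 9.91 in culture, 10.70, 10.54 and 10.61 after ligation, 10.77, 10.82 and 10.58 after CCl4, and 11.03, 10.78, 10.71, 11.36 and 10.71 in quiescent cells. Every culture array was below every array of the other groups. The log2 difference of culture was -0.71 ± 0.15 (adjusted p = 0.00189) from quiescent cells and -0.46 ± 0.15 (adjusted p = 0.0178) from the mean of the injuries, and the second call was not made without culture array 3 (adjusted p = 0.129). Clic3 and Clic6 had no group mean above 2.17.

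Kcnj8 was lower in both injuries and in culture than in quiescent cells. It encodes Kir6.1, the pore of the pericyte ATP-sensitive potassium channel. The bases before its RefSeq start (GRCm38.p6, chr6:142571615-142571864, minus strand, printed 5′ to 3′ along the gene) are shown beside those of Kcnmb1 (chr11:33962763-33963012, plus strand, running past the first base of the gene's span at 33962955), the potassium channel gene that rose most in coculture. Neither window held the TATA box TATAAA, the GC box GGGCGG, the AP-1 motif TGANTCA or the TEAD motif CATTCC on either strand, so no letters are in capitals.
Kcnj8: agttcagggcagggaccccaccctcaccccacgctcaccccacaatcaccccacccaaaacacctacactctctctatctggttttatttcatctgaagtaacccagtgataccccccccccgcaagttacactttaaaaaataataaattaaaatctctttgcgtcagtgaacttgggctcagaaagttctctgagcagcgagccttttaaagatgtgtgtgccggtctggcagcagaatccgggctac
Kcnmb1: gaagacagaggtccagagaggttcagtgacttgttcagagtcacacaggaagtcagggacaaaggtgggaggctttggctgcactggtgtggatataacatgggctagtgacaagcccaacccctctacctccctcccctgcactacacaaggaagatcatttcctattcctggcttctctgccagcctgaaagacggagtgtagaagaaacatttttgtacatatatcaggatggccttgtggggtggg
Kcnj8 read 8.00 and 9.44 in coculture, 6.43, 7.30 and 8.02 in culture, 6.13, 6.41 and 7.50 after ligation, 4.34, 5.65 and 5.60 after CCl4, and 9.84, 9.12, 8.78, 8.51 and 9.88 in quiescent cells. Every array after CCl4 was below every culture, coculture and quiescent array. The 3 arrays after ligation lay between the CCl4 and quiescent values, but limma did not call Kcnj8 between the injuries (adjusted p = 0.232). It fell by 4.03 ± 0.47 (adjusted p = 2.98e-05) after CCl4, 2.55 ± 0.47 (adjusted p = 0.00147) after ligation and 1.98 ± 0.47 (adjusted p = 0.0035) in culture, all log2 differences against quiescent cells. In coculture the difference was -0.51 ± 0.54 (adjusted p = 0.483), not called, with array 3 inside the quiescent range and array 2 below it. Culture exceeded the mean of the injuries by 1.31 ± 0.45 (adjusted p = 0.0248), a call not made without culture array 2 (adjusted p = 0.0694), culture array 3 (adjusted p = 0.152), ligation array 1 (adjusted p = 0.0529) or CCl4 array 1 (adjusted p = 0.0545). Abcc9, the receptor subunit, had means of 9.91 ± 1.28 in coculture, 10.39 ± 0.48 in culture, 9.07 ± 0.31 after ligation, 8.37 ± 0.54 after CCl4 and 10.70 ± 0.57 in quiescent cells (SD, with 2, 3, 3, 3 and 5 arrays). It fell by 2.33 ± 0.39 (adjusted p = 0.000646) after CCl4 and 1.63 ± 0.39 (adjusted p = 0.00861) after ligation, and its culture difference of -0.31 ± 0.39 (adjusted p = 0.545) was not called. Hepatocyte and mesothelial sums were higher and stellate sums lower in the same in vivo groups, and their part was not tested. Kcnj11, the other ATP-sensitive pore, stayed between 3.14 and 3.53 in all groups.

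Of the 20 tested genes, 19 had a window in the RefSeq table. The GC box was in 12 of 19 windows (63.2%), beside 67.5% of the 6416 tested genes with one and 32.7% of all 32851 windows of this length. TATAAA was in 1 (Clcn5, 5.26% beside 7.72%), the AP-1 motif in 1 (Clic1, 5.26% beside 5.16%) and the TEAD motif in 2 (Clcn3 and Trpv2, 10.5% beside 12.4%), both strands read. A match is a run of letters, not a shown site.

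Kcnmb1 was the potassium channel gene at log2 5 in coculture and in no other group. It encodes the beta1 subunit that raises the calcium sensitivity of the large-conductance BK channel in smooth muscle. Its arrays read 6.12 and 5.28 in coculture, 4.31, 3.13 and 2.61 in culture, 3.31, 1.95 and 2.34 after ligation, 3.02, 4.29 and 2.27 after CCl4, and 1.75, 1.91, 2.35, 1.43 and 1.62 in quiescent cells. Both coculture arrays exceeded every other array, and all culture arrays exceeded all quiescent ones. The differences were 3.89 ± 0.56 (adjusted p = 0.000102) for coculture and 1.53 ± 0.49 (adjusted p = 0.0197) for culture against quiescent cells, and 2.36 ± 0.61 (adjusted p = 0.0169) for coculture against culture. The culture call was not made without culture array 1 (adjusted p = 0.124), and the coculture against culture call was not made without culture array 3 (adjusted p = 0.0641). It was also not made when only the groups compared were fitted (adjusted p = 0.0625). After CCl4 the difference from quiescent cells, 1.38 ± 0.49 (adjusted p = 0.0544), was not called. It was called in some other fits, as with array weights (adjusted p = 0.0273) or without CCl4 array 3 (adjusted p = 0.0266). The quiescent mean of 1.81 is at background, so differences from it depend on the background estimate. The gene passed the filter through its coculture arrays alone and missed it without either. Its second probe set, at group means of 1.55 to 2.14, gave 0.59 for coculture and 0.48 for culture against quiescent cells, and 0.11 for coculture minus culture. Kcnma1, the BK pore, had group means of 1.67 to 1.98, near background, on its own probe set. The smooth muscle sums of coculture and culture overlapped, and the genes of that list did not move together. Cnn1 averaged 4.90 in coculture and 2.77 in culture, Smtn 5.43 and 4.27, and Actg2 6.34 and 6.03. Myh11, at 3.81 and 5.10, and Lmod1, at 3.60 and 3.75, were lower in coculture. The part of these genes was not tested.

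Coculture and culture also differed in Kcne4 and Kcnq5. Kcne4 encodes a single-pass subunit that inhibits several voltage-gated potassium channels, and its arrays read 8.88 and 9.19 in coculture, 7.99, 8.06 and 7.35 in culture, 7.21, 7.55 and 7.75 after ligation, 6.75, 7.20 and 6.84 after CCl4, and 7.80, 6.92, 7.09, 7.93 and 8.00 in quiescent cells. Coculture arrays were the highest of all 16. The CCl4 arrays did not overlap with those after ligation, but limma did not call that difference (adjusted p = 0.389). Coculture exceeded quiescent cells by 1.49 ± 0.30 (adjusted p = 0.00125) and culture by 1.24 ± 0.32 (adjusted p = 0.0178), and the second was not called without culture array 3 (adjusted p = 0.0695), coculture array 2 (adjusted p = 0.071) or coculture array 3 (adjusted p = 0.113). Kcnq5 encodes Kv7.5, a slow voltage-gated channel of neurons and vascular muscle. It averaged 4.54 ± 0.76 in coculture, 3.13 ± 0.23 in culture, 3.67 ± 0.11 after ligation, 4.89 ± 0.64 after CCl4 and 3.38 ± 0.55 in quiescent cells (SD), below log2 5 in all. It was higher after CCl4 than in quiescent cells by 1.51 ± 0.36 (adjusted p = 0.00769) and in coculture by 1.16 ± 0.41 (adjusted p = 0.0365), and its log2 difference between culture and the mean of the injuries was -1.15 ± 0.35 (adjusted p = 0.0122). The last was not called without culture array 2 (adjusted p = 0.0581), and the coculture call was not made without quiescent array 2 (adjusted p = 0.0673) or quiescent array 5 (adjusted p = 0.0692). Coculture minus culture, 1.41 ± 0.45 (adjusted p = 0.0445), was not called with any 1 of quiescent array 3, culture array 1, culture array 2, culture array 3, ligation array 1, ligation array 2, ligation array 3 and CCl4 array 3 left out (adjusted p between 0.0517 and 0.115). The coculture call against quiescent cells was also not made with array weights (adjusted p = 0.0575). The gene passed the filter through coculture array 2 and CCl4 array 2, and missed it without either. Its second probe set gave 0.53 in coculture and 0.32 after CCl4 against quiescent cells, at group means of 1.83 to 2.45. The third, at group means of 1.54 to 2.42, gave -0.40 in coculture and 0.24 after CCl4.

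Kcnk5 was lower in both injuries. It encodes TASK-2, a background potassium channel opened by alkaline pH and best known in kidney. Its means were 3.52 ± 0.13 in coculture, 4.12 ± 0.81 in culture, 2.45 ± 0.25 after ligation, 2.21 ± 0.13 after CCl4 and 4.85 ± 0.69 in quiescent cells (SD). It fell by 2.64 ± 0.39 (adjusted p = 0.000265) after CCl4, 2.40 ± 0.39 (adjusted p = 0.000626) after ligation and 1.33 ± 0.45 (adjusted p = 0.0296) in coculture, and culture exceeded the mean of the injuries by 1.79 ± 0.38 (adjusted p = 0.00124). The coculture call was not made without quiescent array 1 (adjusted p = 0.0521), quiescent array 5 (adjusted p = 0.0513), coculture array 2 (adjusted p = 0.152) or coculture array 3 (adjusted p = 0.104), nor when only the groups compared were fitted (adjusted p = 0.0567). After injury the level was near background. The gene passed the filter through 3 arrays at log2 5, none of them in coculture or after injury. Its lower values in those groups are therefore partly fixed by the filter. Its second probe set, at 1.70 to 2.67, gave -0.66 after CCl4, -0.86 after ligation and -0.15 in coculture. Kcnk6, encoding TWIK-2, averaged 5.31 ± 0.37 in culture and 4.93 ± 0.90 in quiescent cells and was called in none of the 7 comparisons.

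**Figure D4:**
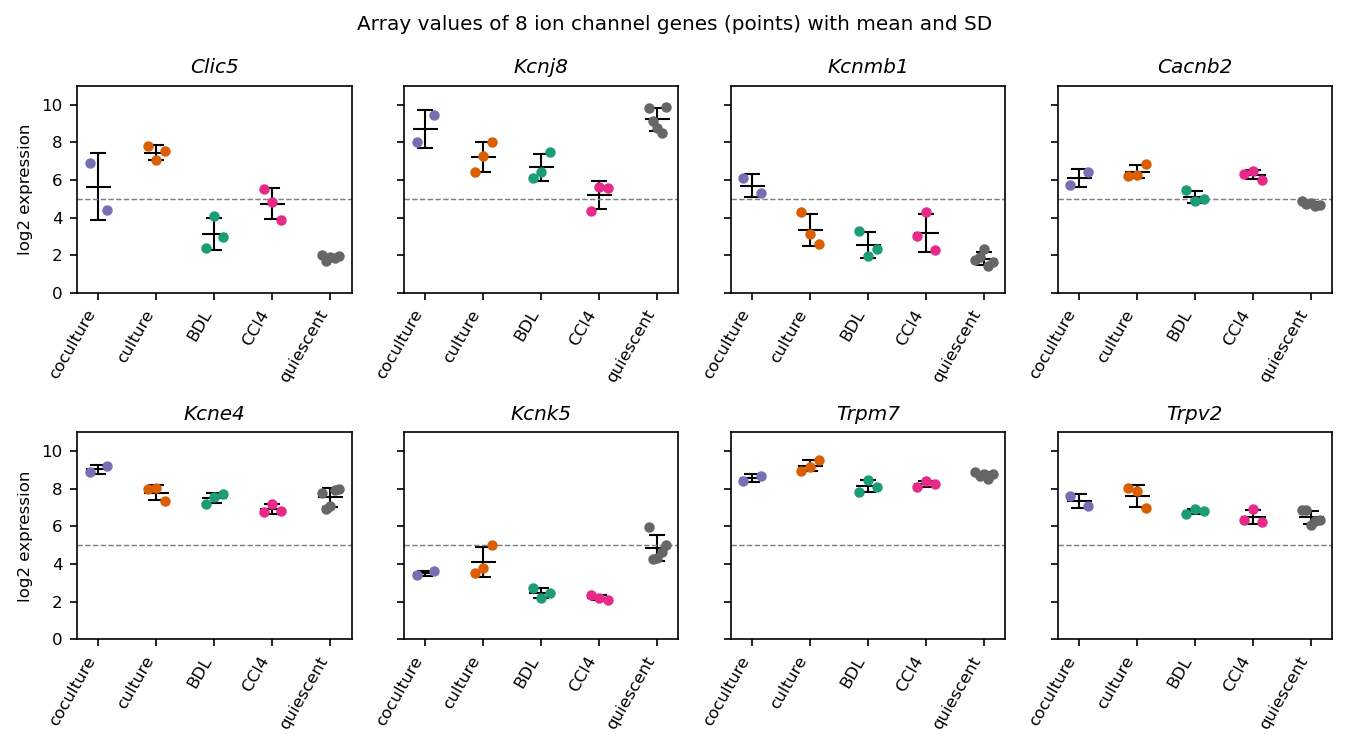
Log2 expression of Clic5, Kcnj8, Kcnmb1, Cacnb2, Kcne4, Kcnk5, Trpm7 and Trpv2 on each array (points) with group means ± SD (bars), for coculture, culture, ligation, CCl4 and quiescent cells. Kcnj8 is lowest after CCl4, and both Kcnmb1 coculture points lie above all others.

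Among calcium channel subunits, auxiliary genes were measured without a pore gene at log2 5. Cacnb2 encodes a cytoplasmic beta subunit that carries the pore protein to the membrane. Its arrays read 5.75 and 6.43 in coculture, 6.20, 6.26 and 6.83 in culture, 5.44, 4.86 and 4.97 after ligation, 6.32, 6.48 and 6.005 after CCl4, and 4.87, 4.74, 4.78, 4.62 and 4.66 in quiescent cells. Coculture, culture and CCl4 arrays all exceeded every quiescent array, and the ligation arrays lay below every CCl4 array. Ligation minus CCl4 was -1.18 ± 0.24 (adjusted p = 0.065) and was not called by limma. No quiescent array reached log2 5, so the gene passed the filter through the other groups. Relative to quiescent cells Cacnb2 rose by 1.35 ± 0.24 (adjusted p = 0.00062) in coculture, 1.69 ± 0.21 (adjusted p = 2.44e-05) in culture and 1.53 ± 0.21 (adjusted p = 0.000142) after CCl4, folds of 2.55, 3.24 and 2.9. After ligation the difference was 0.36 ± 0.21 (adjusted p = 0.279), not called. Culture exceeded the mean of the injuries by 0.75 ± 0.21 (adjusted p = 0.00708), a call not made without culture array 3 (adjusted p = 0.0613). Its other probe set gave 1.55, 1.54 and 1.60 for the same 3 differences from quiescent cells.

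Cacna2d1 encodes the alpha2delta-1 subunit, the target of gabapentin and a binding partner of thrombospondins, and its probe sets disagreed. On the probe set used it read 5.98 and 6.50 in coculture, 7.29, 7.50 and 7.48 in culture, 6.85, 7.15 and 6.92 after ligation, 6.10, 6.64 and 6.87 after CCl4, and 7.38, 7.65, 6.73, 7.51 and 7.57 in quiescent cells. Both coculture arrays were below all culture and quiescent arrays. It fell by 1.13 ± 0.25 (adjusted p = 0.00285) in coculture and 0.83 ± 0.22 (adjusted p = 0.0145) after CCl4 against quiescent cells, and coculture minus culture was -1.19 ± 0.28 (adjusted p = 0.00908). Culture exceeded the mean of the injuries by 0.67 ± 0.21 (adjusted p = 0.0161). The second probe set of the gene instead gave 1.50 for coculture, 1.27 for culture and 0.11 for CCl4 against quiescent cells, with means of 7.34 in coculture, 7.11 in culture, 5.95 after CCl4 and 5.84 in quiescent cells. No single direction can therefore be given for the gene's transcripts in coculture. Calls on the first probe set were not made for coculture against quiescent cells without coculture array 2 (adjusted p = 0.0643), for coculture against culture without coculture array 2 (adjusted p = 0.143), for CCl4 without CCl4 array 1 (adjusted p = 0.11) and for culture against the injuries without culture array 2 (adjusted p = 0.06) or culture array 3 (adjusted p = 0.0547).

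Of the 18 TRP genes, Trpc1, Trpm7 and Trpv2 reached log2 5, and all were higher in culture than in the mean of the injuries. Trpv2 encodes a calcium-permeable channel studied in macrophages and muscle. It read 7.63 and 7.08 in coculture, 8.06, 7.87 and 6.96 in culture, 6.67, 6.91 and 6.83 after ligation, 6.32, 6.90 and 6.24 after CCl4, and 6.86, 6.86, 6.10, 6.28 and 6.32 in quiescent cells. All culture arrays exceeded all quiescent, ligation and CCl4 arrays. It rose by 1.15 ± 0.26 (adjusted p = 0.00267) in culture and 0.87 ± 0.30 (adjusted p = 0.0312) in coculture against quiescent cells, and culture exceeded the injuries by 0.99 ± 0.25 (adjusted p = 0.00456). The coculture call was not made without quiescent array 3 (adjusted p = 0.0566), quiescent array 5 (adjusted p = 0.0534) or coculture array 2 (adjusted p = 0.278). Trpc1, a subunit of receptor- and store-linked cation channels, read 5.52 and 5.88 in coculture, 6.49, 6.57 and 6.92 in culture, 5.31, 4.86 and 5.21 after ligation, 4.44, 5.78 and 5.29 after CCl4, and 5.92, 6.43, 5.40, 5.95 and 5.67 in quiescent cells. Every culture array exceeded every other array. Culture exceeded the mean of the injuries by 1.51 ± 0.27 (adjusted p = 0.000316) and quiescent cells by 0.79 ± 0.28 (adjusted p = 0.0337), and the second was not called without quiescent array 3 (adjusted p = 0.0704), quiescent array 5 (adjusted p = 0.0633), culture array 2 (adjusted p = 0.0686) or culture array 3 (adjusted p = 0.131), nor with no filter (adjusted p = 0.057).

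Trpm7 encodes a channel fused to a kinase that carries magnesium and calcium. Its arrays read 8.41 and 8.71 in coculture, 8.97, 9.15 and 9.56 in culture, 7.82, 8.46 and 8.12 after ligation, 8.12, 8.43 and 8.26 after CCl4, and 8.91, 8.70, 8.81, 8.54 and 8.79 in quiescent cells. No culture array overlapped with any array of the other groups. Culture exceeded the mean of the injuries by 1.03 ± 0.16 (adjusted p = 9.83e-05) and quiescent cells by 0.48 ± 0.16 (adjusted p = 0.0292). Trpm7 fell by 0.62 ± 0.16 (adjusted p = 0.0171) after ligation and 0.48 ± 0.16 (adjusted p = 0.0483) after CCl4 against quiescent cells, and by 0.67 ± 0.21 (adjusted p = 0.0394) in coculture against culture. Several of these calls depended on single arrays. The culture call was not made without quiescent array 4 (adjusted p = 0.0591), culture array 2 (adjusted p = 0.0571) or culture array 3 (adjusted p = 0.176), the ligation call without ligation array 1 (adjusted p = 0.123) or ligation array 3 (adjusted p = 0.0529) and the coculture against culture call with any 1 of culture array 2, culture array 3, coculture array 2, coculture array 3 and CCl4 array 3 left out (adjusted p between 0.0513 and 0.309). The CCl4 call was not made with any 1 of quiescent array 1, quiescent array 2, quiescent array 3, quiescent array 5, culture array 2, coculture array 2, coculture array 3, ligation array 3, CCl4 array 1, CCl4 array 2 and CCl4 array 3 left out (adjusted p between 0.051 and 0.201). With the mean of its 4 probe sets, of which 2 lie near background, the 5 calls of Trpm7 were not made, and with no filter the culture, CCl4 and coculture against culture calls were not (adjusted p up to 0.0824). Its second probe set alone gave 0.54 in culture, -0.86 after ligation and -0.41 after CCl4 against quiescent cells. Trpc6, with a mean of 4.58 after CCl4, and Trpm4 stayed under the filter, and Trpv4 had group means of 1.38 to 1.63.

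The ClC genes at log2 5 encode chloride-proton exchangers of endosomes and lysosomes. Clcn4 read 6.41 and 6.79 in coculture, 7.005, 6.66 and 7.05 in culture, 7.76, 7.70 and 7.55 after ligation, 6.44, 6.83 and 7.24 after CCl4, and 7.72, 7.72, 7.64, 7.93 and 7.88 in quiescent cells. Quiescent and ligation arrays were above all arrays of the other 3 groups. It fell by 1.18 ± 0.20 (adjusted p = 0.000348) in coculture, 0.87 ± 0.17 (adjusted p = 0.001) in culture and 0.94 ± 0.17 (adjusted p = 0.00136) after CCl4 against quiescent cells, while the ligation difference was -0.11 ± 0.17 (adjusted p = 0.713). Its second probe set moved less, by -0.67, -0.12 and -0.21 in the same 3 comparisons. On that probe set the ligation difference was -0.29 and ligation minus CCl4 was -0.08. On the probe set used, ligation minus CCl4 was 0.83 ± 0.19 (adjusted p = 0.0983) and was not called by limma. The separation of ligation and CCl4 arrays is given for that probe set alone. With the mean of both the culture and CCl4 differences were -0.50 and -0.58. Clcn5, the exchanger altered in Dent disease of the human kidney, read 5.67 and 5.26 in coculture, 5.09, 4.55 and 4.52 in culture, 5.79, 6.15 and 6.30 after ligation, 5.44, 5.50 and 5.80 after CCl4, and 6.13, 5.95, 5.33, 5.86 and 5.60 in quiescent cells. Every culture array was below every array of the other 4 groups, with log2 differences of -1.05 ± 0.22 (adjusted p = 0.00144) from quiescent cells and -1.11 ± 0.21 (adjusted p = 0.000547) from the mean of the injuries. Clcn7, the lysosomal exchanger, read 7.35 and 7.52 in coculture, 7.87, 7.84 and 7.91 in culture, 7.11, 7.81 and 7.87 after ligation, 6.97, 7.42 and 7.34 after CCl4, and 8.28, 7.69, 7.79, 7.98 and 8.18 in quiescent cells. The coculture and CCl4 arrays lay below every quiescent array. It fell by 0.74 ± 0.19 (adjusted p = 0.0108) after CCl4, a call not made without CCl4 array 1 (adjusted p = 0.0776). Culture exceeded the mean of the injuries by 0.45 ± 0.18 (adjusted p = 0.0477), not called with any 1 of quiescent array 3, quiescent array 4, quiescent array 5, culture array 1, culture array 2, culture array 3, coculture array 2, coculture array 3, ligation array 1, CCl4 array 1 and CCl4 array 3 left out (adjusted p between 0.0509 and 0.12), nor with no filter, with no trend or with only the groups compared (adjusted p up to 0.0839). Ostm1, the partner protein of the Clcn7 product, fell by 0.59 ± 0.14 (adjusted p = 0.00741) after CCl4 and was higher in culture than in the injuries by 0.77 ± 0.14 (adjusted p = 0.000276). Clcn3 averaged 6.39 ± 0.21 in coculture, 6.82 ± 0.38 in culture, 6.79 ± 0.34 after ligation, 7.03 ± 0.27 after CCl4 and 6.98 ± 0.42 in quiescent cells, with no call in any comparison. Its second probe set had group means of 4.40 to 5.19, and its lower probe sets had no array at log2 5.

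Of the 7 anoctamins, Ano6 and Ano10 reached log2 5. Ano6, a calcium-activated lipid scramblase and ion channel, read 8.00 and 8.81 in coculture, 8.65, 8.38 and 9.11 in culture, 9.11, 9.28 and 9.18 after ligation, 8.26, 8.85 and 9.15 after CCl4, and 9.96, 9.67, 9.05, 9.62 and 9.66 in quiescent cells. Both coculture arrays were below the quiescent range, which the culture and CCl4 arrays overlapped. It fell by 1.19 ± 0.28 (adjusted p = 0.00354) in coculture, 0.88 ± 0.24 (adjusted p = 0.00885) in culture and 0.84 ± 0.24 (adjusted p = 0.0214) after CCl4 against quiescent cells, and the ligation difference was -0.40 ± 0.24 (adjusted p = 0.284). The 3 calls were not made without coculture array 2 (adjusted p = 0.0998), without culture array 2 (adjusted p = 0.0572) and without CCl4 array 1 (adjusted p = 0.157), in that order. Its second probe set gave -1.07, -0.91 and -0.83. Ano10 averaged 6.83 ± 0.06 in coculture, 7.04 ± 0.21 in culture, 6.52 ± 0.31 after ligation, 6.31 ± 0.14 after CCl4 and 6.71 ± 0.32 in quiescent cells, and culture exceeded the mean of the injuries by 0.63 ± 0.19 (adjusted p = 0.0121), a call not made without culture array 1 (adjusted p = 0.0628). Ano1, the calcium-activated chloride channel of smooth muscle and epithelia, had 1 array at log2 5, culture array 3 at 6.44, and a culture mean of 3.86.

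**Figure D5:**
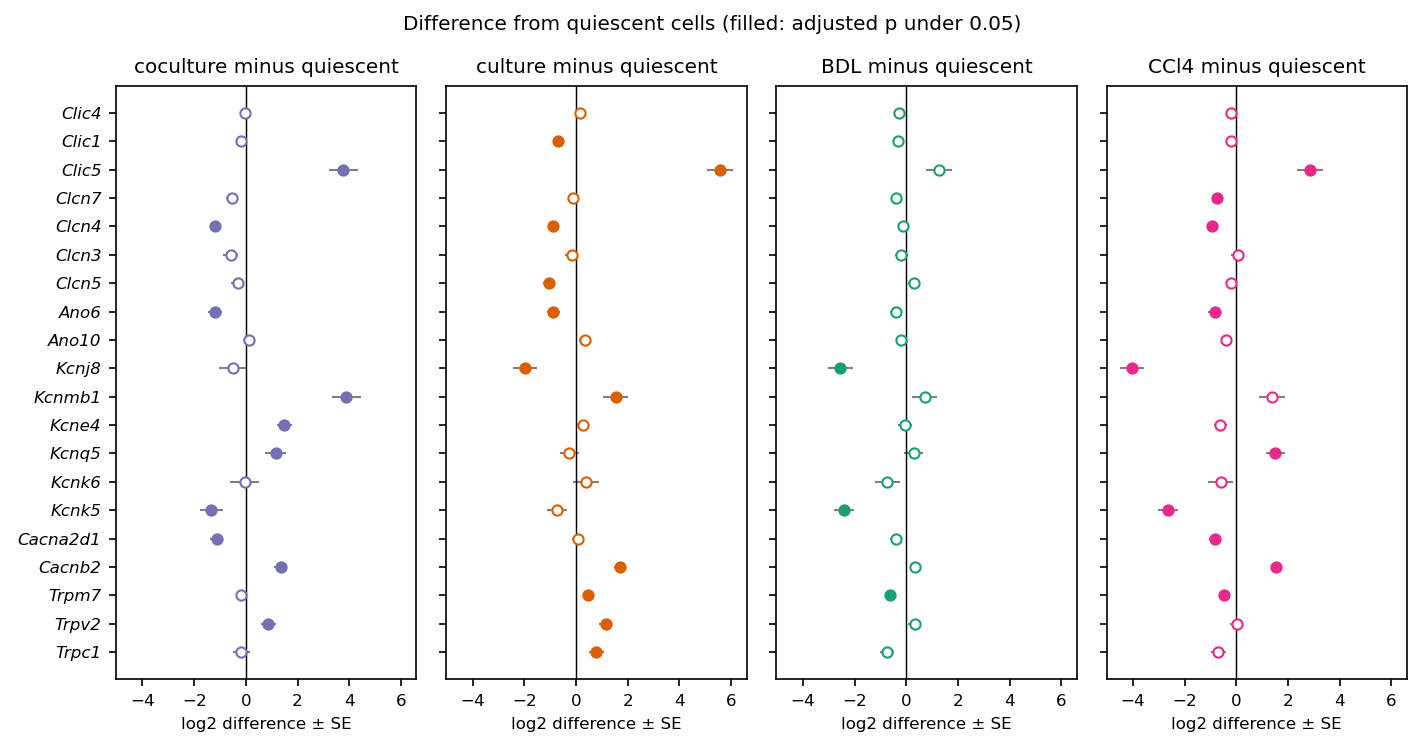
Log2 differences ± SE from quiescent cells for the 20 tested ion channel genes, in coculture, culture, ligation and CCl4; filled points have a limma adjusted p under 0.05. Clic5 reaches 5.58 in culture and Kcnj8 -4.03 after CCl4.

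Of 61 listed channel genes outside the symbol rule, 56 had a single-symbol probe set and 23 were tested. Limma called 3 higher and 6 lower in coculture, 5 and 2 in culture, 4 and 2 after ligation, and 3 and 5 after CCl4, each against quiescent cells, 1 and 3 in coculture against culture, and 8 and 5 in culture against the injuries. Of all genes tested, 17.8% and 20.9% were called higher and lower in coculture, 18.5% and 23.5% in culture, 8.03% and 8.83% after ligation, 9.51% and 12.5% after CCl4, 8.37% and 7.03% in coculture against culture, and 25.0% and 25.9% in culture against the injuries. The list's median log2 difference from quiescent cells was -0.18 in coculture, -0.06 in culture, 0.0083 after ligation and -0.25 after CCl4, where all genes tested gave -0.04 to -0.05. Gja1, the gap junction protein connexin 43, fell by 1.38 ± 0.24 (adjusted p = 0.000486) in coculture, 2.27 ± 0.21 (adjusted p = 1.78e-06) in culture, 1.19 ± 0.21 (adjusted p = 0.00111) after ligation and 1.48 ± 0.21 (adjusted p = 0.000188) after CCl4. Lrrc8c, a subunit of the volume-regulated anion channel, rose by 1.53 ± 0.29 (adjusted p = 0.000955) in coculture, 1.61 ± 0.26 (adjusted p = 0.000187) in culture, 1.08 ± 0.26 (adjusted p = 0.00864) after ligation and 1.11 ± 0.26 (adjusted p = 0.00639) after CCl4. Piezo2, the mechanically gated channel, rose by 3.04 ± 0.34 (adjusted p = 2.02e-05) after ligation and 1.31 ± 0.34 (adjusted p = 0.0131) after CCl4. Its means were 6.19 ± 0.29 after ligation and 4.45 ± 0.64 after CCl4, against 3.14 ± 0.21 in quiescent cells. Only the ligation mean reached log2 5, so the higher value there is partly fixed by the filter. Tpcn1, an endolysosomal channel, fell by 1.76 ± 0.29 (adjusted p = 0.000335) in coculture and 1.42 ± 0.26 (adjusted p = 0.0012) after CCl4. Tmem38b, a store membrane cation channel, rose by 1.30 ± 0.28 (adjusted p = 0.00201) in coculture and 1.08 ± 0.24 (adjusted p = 0.00248) in culture.

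Of 33 calcium store and pump genes, 28 were on the array and 10 were tested, with 1 called higher and 2 lower in coculture, 1 and 4 in culture, 1 and 2 after ligation, and 0 and 2 after CCl4, against quiescent cells, and medians of -0.43, -0.35, -0.13 and -0.39 in the same order. The shares and medians of all genes given for the list above apply here and to the next list. Slc8b1, the mitochondrial sodium-calcium exchanger, fell by 1.27 ± 0.29 (adjusted p = 0.00631) after ligation and 1.07 ± 0.29 (adjusted p = 0.0148) after CCl4, and for Stim1, the store calcium sensor, coculture minus culture was -1.24 ± 0.36 (adjusted p = 0.0282). Of 21 pump and cotransporter genes, 15 were on the array and 11 were tested, with 1 higher and 2 lower in coculture, 3 and 2 in culture, 2 and 0 after ligation, and 2 and 1 after CCl4, and medians of -0.12, -0.14, -0.01 and -0.23. Atp1b1, a beta subunit of the sodium pump, rose by 5.49 ± 0.42 (adjusted p = 4.7e-07) in coculture, 2.18 ± 0.37 (adjusted p = 0.00028) in culture, 4.37 ± 0.37 (adjusted p = 1.34e-06) after ligation and 5.99 ± 0.37 (adjusted p = 3.62e-08) after CCl4. It was higher in coculture than in culture by 3.31 ± 0.46 (adjusted p = 0.000241). Its quiescent mean of 1.64 is at background, so the differences from quiescent cells depend on the background estimate. Its group mean reached log2 5 only in coculture, after ligation and after CCl4, so the higher values there are partly fixed by the filter. Slc4a4, the sodium bicarbonate cotransporter, rose by 2.44 ± 0.30 (adjusted p = 4.43e-05) after ligation and 2.85 ± 0.30 (adjusted p = 1.08e-05) after CCl4. The hepatocyte and mesothelial sums were higher after ligation and CCl4, and Krt19 in coculture, and their part was not tested.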

How the data were processed

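Hepatic stellate cell RNA was read on 16 arrays in 5 groups, taken from the sample titles. The authors deposited log2 expression values per probe set (0.04 to 13.88), with GCRMA named in the submitters' processing notes and its version not given in the sources used here. GCRMA corrects background, quantile-normalises and summarises probes, so values near log2 2 carry the background estimate. The depth of an array is not defined, and the number of arrays limits the precision.

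Of 45101 probe sets (0 missing values), 34945 had 1 gene symbol in the platform annotation. The 932 with several, 9160 with none and 64 controls were left out. Each of 18193 genes was read by the probe set of highest average, and the 7823 genes at log2 5 on at least 2 arrays were tested. The model was limma 3.58.1 in R 4.3.3 (lmFit, eBayes with trend) with 5 group means over all arrays, 7 two-sided contrasts and 1 F test, Benjamini-Hochberg adjusted over all 7823, called under 0.05. Differences are in log2 units, where 1 means 2-fold, and errors are SE for differences and SD for means. The fit was tested on simulated data. All 152 member symbols were found in the RefSeq gene table (GRCm38.p6), which also supplied promoter windows. Array values were printed for the called members with the largest changes whose higher group mean reached log2 5 and for the 10 highest members, and other channel genes were named among the smallest p values. The members and lists were chosen with earlier results of these data known.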

Additional observations from a re-analysis of the deposited data

Results flagged for a closer look

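The cultured and cocultured groups shared serum and time in culture and by description differed in the presence of macrophages behind the insert. Their marker sums also differed. Stellate sums were 12.02 to 12.75 in coculture and 13.13 to 14.21 in culture. Macrophage sums, mainly through Cd68, were 8.02 to 8.04 and 5.32 to 6.05. The part of these shifts was not tested. The difference between the changes of both groups from quiescent cells was itself tested by limma (coculture minus culture). It passed for 5 ion channel genes, with log2 differences of 2.36 for Kcnmb1, 1.41 for Kcnq5, 1.24 for Kcne4, -1.19 for Cacna2d1 and -0.67 for Trpm7. The value of Cacna2d1 holds for 1 probe set, and its second probe set gave 0.23. Each of the 5 calls was lost in at least 1 fit that left out an array. Kcnmb1 passed the filter through its coculture arrays alone and Kcnq5 through 1 coculture and 1 CCl4 array, so for these the higher coculture values are partly fixed by the filter.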

How the results depend on the processing

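Of 53 calls in 140 pairs of gene and comparison, 25 held in every setting run. The count of genes at log2 5 was 18, with 12 from the mean of all probe sets, 23 at log2 4, 16 at log2 6 and 18 to 19 leaving out an array. With a filter at log2 7 the calls were 7 in culture and 6 in coculture against quiescent cells, 3 in coculture against culture, 9 in culture against the injuries and 11 in the F test, where fewer genes were tested. With the mean of all probe sets they were 7 in culture, 6 in coculture, 1 after ligation, 5 after CCl4, 2 in coculture against culture, 6 in culture against the injuries and 9 in the F test. With no filter they were 5 after ligation, 22 in culture against the injuries and 26 in the F test, of which more genes were tested. Fitting only the groups compared gave 2 in coculture against culture. Between the injuries there were 1 with no trend and 3 with array weights, an estimate that stopped short of its tolerance, and 0 in the other settings. The cause of these moves was not tested.

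Leaving out each array gave 8 to 11 calls in culture, 4 to 11 in coculture, 2 to 5 after ligation and 6 to 11 after CCl4 against quiescent cells, 1 to 6 in coculture against culture, 0 between the injuries, 10 to 15 in culture against the injuries and 15 to 18 in the F test. The count fell to 4 without coculture array 2 (coculture) and to 6 without CCl4 array 1 (CCl4), and it was 5 after ligation without CCl4 array 1. The fits that left 1 coculture array assume that it varies like the other groups.

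Replicate numbers were used as a block in 1 alternative. Deviations of 26 same-numbered pairs correlated between -0.259 and 0.537 (median -0.0065, 7 over 0.1), so the numbers were not taken to pair the samples. Between culture and coculture the same-numbered pairs correlated at 0.309 (number 2) and 0.537 (number 3). Culture array 1 and coculture array 2 correlated at 0.45. The deviations of 2 coculture arrays mirror each other, so a pairing of culture with coculture could not be decided. With the replicate block the calls were 6 after CCl4, 8 in culture, 9 in coculture, 3 after ligation, 5 in coculture against culture, 14 in culture against the injuries and 16 in the F test. The block ended 11 calls: Ano6, Cacna2d1, Clcn7 and Trpm7 after CCl4, Kcnk5 and Kcnq5 in coculture, Kcnmb1, Trpc1 and Trpm7 in culture, Kcnq5 in coculture against culture and Clcn7 in culture against the injuries.

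Signs turned in 33 values, of which 0 were called on either side. In other settings these were Kcnk6 between the injuries (0.13 with array weights), Kcne4 after ligation (0.014 with centred arrays, 0.24 with the replicate block), and with the replicate block Kcnk6 in culture (-0.21), Clcn3 after CCl4 (-0.15) and Trpv2 after CCl4 (-0.12). Leaving out an array gave -0.72 to 0.095 for Ano6 in coculture against culture, -0.10 to 0.13 for Cacna2d1 and -0.32 to 0.056 for Clcn3 in culture, and -0.35 to 0.0032 after ligation, -0.11 to 0.17 after CCl4 and -0.23 to 0.13 in culture against the injuries for Clcn3. It gave -0.096 to 0.052 for Clic4, -1.23 to 0.22 for Kcnj8, -0.38 to 0.26 for Kcnk6 and -0.35 to 0.0034 for Trpc1 in coculture, -0.20 to 0.10 for Kcne4 after ligation and -0.20 to 0.13 for Trpv2 after CCl4. Between the injuries it gave -0.15 to 0.074 for Clic4, -0.46 to 0.53 for Kcnk6, -0.41 to 0.26 for Trpc1 and -0.30 to 0.022 for Trpm7.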

Other observations

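Some low members showed differences when the filter on low values was dropped. Without it limma called 12 of 132 ion channel genes that the filter had left out, beside 20.4% of all genes left out. Scn3b, a sodium channel beta subunit, had a group mean of 3.82 ± 0.32 in coculture and 3.09 ± 0.83 in culture, against 1.29 ± 0.16 in quiescent cells (SD), with differences of 2.53 ± 0.28 (adjusted p = 8.19e-06) and 1.80 ± 0.24 (adjusted p = 5.69e-05). Kcnab1, which encodes a potassium channel beta subunit, averaged 3.61 ± 0.91 in coculture and 3.47 ± 0.58 in culture, against 1.85 ± 0.33 in quiescent cells, with differences of 1.76 ± 0.33 (adjusted p = 0.00111) and 1.62 ± 0.29 (adjusted p = 0.000686). Trpc6, a receptor-operated cation channel, averaged 4.58 ± 0.73 after CCl4 and 2.26 ± 0.38 in quiescent cells, with a difference of 2.32 ± 0.30 (adjusted p = 6.86e-05). Clcn6, a late endosomal exchanger, averaged 3.61 ± 0.15 in coculture, 4.43 ± 0.06 in culture, 4.18 ± 0.16 after ligation, 3.96 ± 0.05 after CCl4 and 4.94 ± 0.13 in quiescent cells, and was called lower in all 4 states. These genes were chosen after their values were seen, and at such levels the size of a difference depends on the background estimate.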
